A study of Homo sapiens with 12 samples.

Results

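The 10 genes described here encode parts of TGF-beta and activin signalling: the ligand genes TGFB1, TGFB2, INHBA and INHBB, the latency protein LTBP1, the activin antagonist FST, the receptors TGFBR1 and TGFBR2, and the SMAD proteins SMAD3 and SMAD7. They were chosen by name from the 58735 lines of a gene count table, and each of the 10 was found once. The choice used measured values: TGFB2 was noted for its fall in CAL-27 and INHBB for its rise in SCC-15. Those values are therefore given as a description, with no test. Poly(A) RNA was sequenced in 12 libraries of CAL-27 and SCC-15, established lines of human oral squamous cell carcinoma, in 4 groups of 3 libraries. The groups were CAL-27 shControl, CAL-27 shTTK, SCC-15 shControl and SCC-15 shTTK, where shTTK stands for knockdown of TTK, a kinase of the mitotic spindle checkpoint, by a short hairpin RNA. The labels give the genotype of the shControl libraries as WT and that of the shTTK libraries as TTK knockdown, call every library untreated, and place all of them in the same batch. They do not settle whether a control hairpin was present or whether replicates were separate cultures, so p-values measure the spread between these libraries, which may be technical. Each line stands for itself and not for a class of tumours.

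TGF-beta ligands are secreted in a latent form, held by their own propeptide and by latent TGF-beta binding proteins, and become active after release by integrins or proteases. Activins are dimers of the inhibin beta subunits and are bound and blocked by follistatin. Both kinds of ligand assemble type II and type I receptor kinases, which phosphorylate SMAD2 and SMAD3. These enter the nucleus with SMAD4, and SMAD7, itself a target of the pathway, feeds back on the receptors. In squamous epithelium the pathway is known for restraint of keratinocyte growth and for induction of matrix and migration genes.

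Library totals lay between 16176655 and 18484112 counts, and 16946 genes were tested. TTK remained at 68.6% of its control level in CAL-27 shTTK and at 43.1% in SCC-15 shTTK. Library 1 of each SCC-15 group differed more from libraries 2 and 3 than these from each other in the chi-square of their counts, and results that depend on it are also given without it. The 8 epithelial markers were KRT5, KRT14, KRT6A, TP63, KRT8, KRT18, CDH1 and EPCAM, not all of them particular to squamous epithelium. All 8 were present in all 4 groups. Their summed level was 4350 to 4480 CPM (counts scaled to library size by the TMM method) in CAL-27 shControl and 4890 to 4970 in CAL-27 shTTK. It was 6390 to 6690 in SCC-15 shControl and 6020 to 6030 in SCC-15 shTTK. Within the CAL-27 shControl sum, KRT8 stood at 1842, KRT5 at 886 and KRT18 at 667 CPM. Between the control lines, 4 of the 8 were called higher and 4 lower in SCC-15, beside 76% of all genes called. Among those lower, CDH1 was at 451 CPM in CAL-27 shControl and 24.1 CPM in SCC-15 shControl. With knockdown, 4 of the 8 markers were called higher and 4 lower in CAL-27, beside 27.3% of all genes called. In SCC-15, 3 were called higher, 4 lower and 1 was not called, beside 27.7% of all genes called. The basal keratin gene KRT14 rose in CAL-27 from 3.44 to 73.2 CPM and fell in SCC-15 from 763 to 370 CPM. In CAL-27, KRT6A rose from 41.8 to 210 CPM and TP63, a transcription factor of basal epithelium, from 224 to 479 CPM. KRT8, a keratin of simple epithelium, fell there from 1842 to 1146 CPM. KDR, a defining endothelial receptor, was at 0 in every group, and the leukocyte marker PTPRC was at 0 in both CAL-27 groups, as was the fibroblast marker DCN. The summed level of the 5 endothelial markers was 102 to 110 CPM in CAL-27 shControl and 72.9 to 75 CPM in CAL-27 shTTK. Nearly all of it was CDH5, with 104 ± 4.21 and 71.5 ± 0.569 CPM (SD, n = 3). The 8 fibroblast markers summed to 32.0 to 37.7 CPM in CAL-27 shControl and 41.5 to 42.3 CPM in CAL-27 shTTK, and the 5 leukocyte markers to 8.12 to 11.9 CPM and 11 to 14.2 CPM. Most of the fibroblast sum was COL1A1, at 26.7 and 34.3 CPM, with PDGFRB at 5.18 and 4.26 CPM. Nearly all of the leukocyte sum was CD14, at 9.31 and 12.7 CPM. In SCC-15 the endothelial sum was at most 2.58 CPM and the leukocyte sum at most 0.645 CPM, and the fibroblast sum was 21.2 to 23.0 CPM in shControl and 20.6 to 22.7 CPM in shTTK. The part of these marker changes in the results of either line was not tested.

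The promoters of TGFB2 and INHBB, the ligand genes whose changes led to the choice, differ in base composition and are shown for that reason. Each is the stretch of 250 bases before the RefSeq start on GRCh38.p14, 5′ to 3′ on the plus strand, at chr1:218345086-218345335 for TGFB2 and chr2:120345886-120346135 for INHBB. Capitals mark matches, on either strand, to CAGAC (a SMAD-binding core), TGACG (a half-site of cAMP response elements), TATAAA (the TATA box) or TGANTCA (the AP-1 site, N standing for any base).
TGFB2: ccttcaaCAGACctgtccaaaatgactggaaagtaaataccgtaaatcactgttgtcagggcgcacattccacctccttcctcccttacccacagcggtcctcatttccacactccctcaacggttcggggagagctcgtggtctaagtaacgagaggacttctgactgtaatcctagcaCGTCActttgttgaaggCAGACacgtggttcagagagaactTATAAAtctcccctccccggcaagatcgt
INHBB: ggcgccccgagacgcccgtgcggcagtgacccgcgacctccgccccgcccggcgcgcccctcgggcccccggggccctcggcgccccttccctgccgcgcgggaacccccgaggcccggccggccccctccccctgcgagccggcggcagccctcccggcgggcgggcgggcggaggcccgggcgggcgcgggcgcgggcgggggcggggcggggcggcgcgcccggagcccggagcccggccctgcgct
The TGFB2 window held 2 matches to CAGAC, 1 to TGACG and 1 to TATAAA, whose first base lay 29 bases before the RefSeq start. That start lies upstream of the GENCODE 29 start of TGFB2 at 218346235, and the bases after it matched no GENCODE 29 transcript of the gene. The INHBB window held none of the 4 motifs. Among 35116 RefSeq promoter windows of the same length, 38.0% held CAGAC, 21.2% TGACG, 10.7% TATAAA and 6.57% TGANTCA. GC content was 50.4% in the TGFB2 window and 89.6% in the INHBB window, with a median of 58.0% over all windows. A match is a description of letters and not a site in use.

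**Figure D1:**
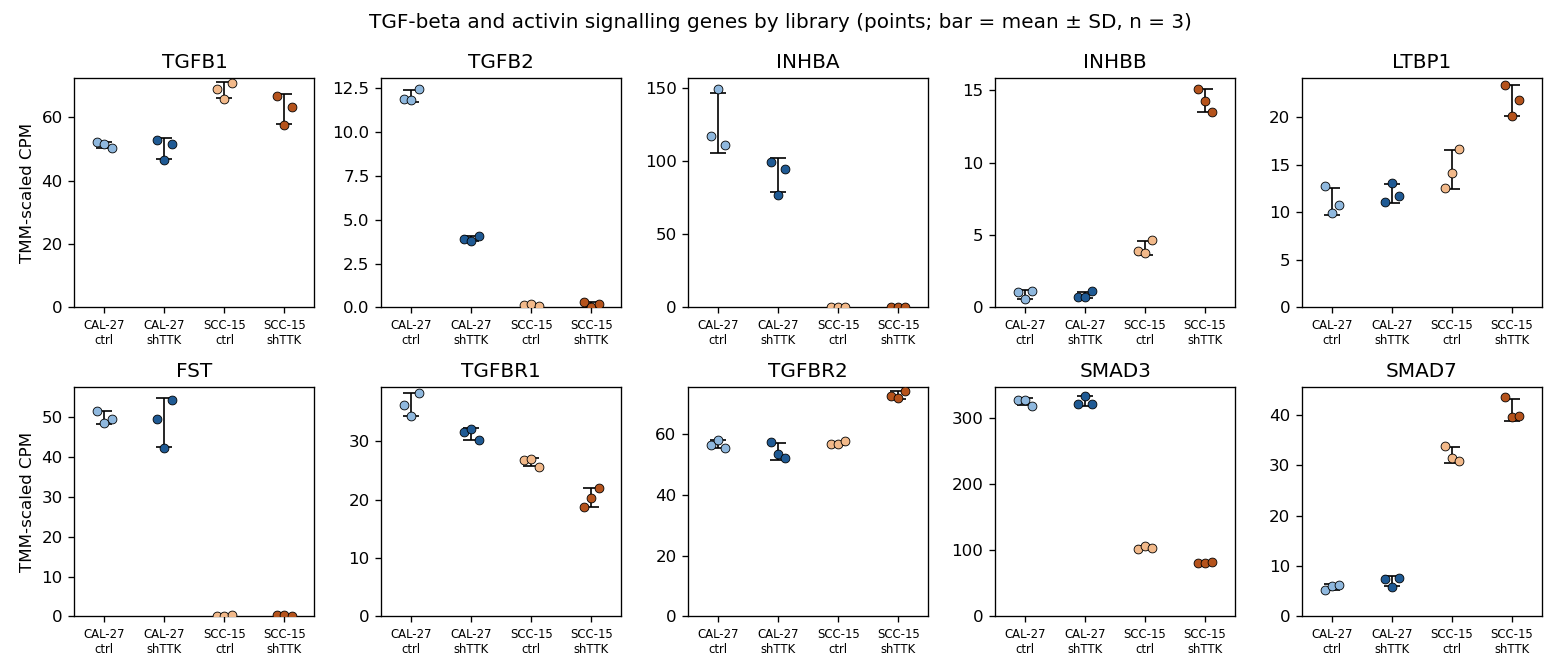
TMM-scaled CPM (vertical axes, each from 0) of the 10 genes in the 12 libraries, as points by group, with the mean and SD of 3 libraries as bars. TGFB2 falls from 12.1 to 3.91 CPM in CAL-27 and INHBB rises from 4.12 to 14.3 CPM in SCC-15, while INHBA, FST and TGFB2 lie near 0 in both SCC-15 groups.

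TGFB2 (chromosome 1, 218346235 to 218444619, plus strand, GENCODE 29 on GRCh38), one of the TGF-beta ligands, was at 11.9, 11.8 and 12.4 CPM in the CAL-27 shControl libraries and at 3.88, 3.78 and 4.06 CPM in the CAL-27 shTTK libraries. The shTTK libraries all lay below the shControl libraries, beside 38.4% of all genes whose CAL-27 groups did not overlap. Each group was tight. The log2 fold change was -1.62, which left 32.4% of the control level, and 45 of the 2657 genes called lower in CAL-27 fell further. Since this fall led to the choice of the gene, its size and rank are a description only. In SCC-15 the gene had 2, 3 and 1 counts in the shControl libraries and 5, 0 and 3 in the shTTK libraries. The ratio of these sums, 8 counts to 6, was 1.32 with a 95% exact interval of 0.402 to 4.62 for counting error, so no change was detectable in SCC-15 at this depth. TGFB2-OT1, which shares exon bases with TGFB2, had 0 counts in every library.

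INHBB (chromosome 2, 120346143 to 120351808, plus strand) encodes the beta B subunit of activin B and inhibin B. It was at 3.89, 3.79 and 4.69 CPM in the SCC-15 shControl libraries and at 15.1, 14.3 and 13.5 CPM in the SCC-15 shTTK libraries. These groups did not overlap, beside 38.9% of all genes in SCC-15, and the lowest shTTK library was well above the highest control. The log2 fold change was 1.79, and 19 of the 2277 genes called higher in SCC-15 rose further. Since this rise led to the choice of the gene, its size and rank are a description only. In CAL-27 the gene was near the limit of the counts, with 10 to 19 counts in the shControl libraries and 12 to 18 in the shTTK libraries. The CAL-27 groups overlapped, and the log2 fold change was -0.09 with a 95% interval of -0.73 to 0.55 (edgeR adjusted p = 0.883).

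INHBA (chromosome 7, 41667168 to 41705834, minus strand), which encodes the beta A subunit of activin A, was among the more abundant of the 10 genes in CAL-27 and nearly absent in SCC-15. In the CAL-27 shControl libraries it was at 118, 149 and 111 CPM, and in the shTTK libraries at 99.3, 77.2 and 94.9 CPM. All shTTK libraries were below all shControl libraries, but the spread within each group was wide. It fell in CAL-27 by 0.48 ± 0.13 (SE) on the log2 scale (edgeR adjusted p = 0.0254). This call was lost in 6 of 20 alternatives. The edgeR adjusted p was 0.128 with CAL-27 fitted alone, 0.0625 with no count filter, 0.0599 with replicate numbers fitted as blocks, and 0.0747 without both SCC-15 libraries numbered 1. It was 0.0687 without CAL-27 shTTK library 2 and 0.0585 without library 3. In SCC-15 it had 3, 0 and 0 counts in the shControl libraries and 1, 1 and 2 in the shTTK libraries, and no fold was drawn from them.

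TGFB1 (chromosome 19, 41301587 to 41353911, minus strand), the most widely expressed TGF-beta ligand, changed little. It was at 52.1, 51.6 and 50.4 CPM in CAL-27 shControl and at 52.8, 46.4 and 51.6 CPM in CAL-27 shTTK, and these groups overlapped (log2 fold change -0.03, 95% interval -0.15 to 0.08, edgeR adjusted p = 0.751). In SCC-15 it was at 69.2, 65.8 and 70.8 CPM in shControl and 66.8, 57.6 and 63.4 CPM in shTTK. The log2 fold change there was -0.13 (95% interval -0.24 to -0.02), with an edgeR adjusted p of 0.059. It was called lower with SCC-15 fitted alone (edgeR adjusted p = 0.047), with the replicate block (0.05 after rounding), without both libraries numbered 1 (0.0435) and without shTTK library 1 (0.018). The exons of TGFB1 share 215 bases with HNRNPUL1 on the opposite strand, which had 4512 to 7452 counts a library. The strand setting of the counting is not given in the sources used here. Reads in the shared bases may therefore have been added to the TGFB1 counts or left out of them.

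LTBP1 (chromosome 2, 32946972 to 33399509, plus strand) encodes a protein that binds latent TGF-beta to the matrix. It was at 12.6, 14.1 and 16.7 CPM in SCC-15 shControl and at 23.3, 20.1 and 21.8 CPM in SCC-15 shTTK. It rose in SCC-15, with every shTTK library above every control, by a log2 fold change of 0.59 ± 0.099 (SE) (edgeR adjusted p = 1.41e-06). In CAL-27 it was at 12.8, 9.92 and 10.7 CPM in shControl and at 11.1, 13.1 and 11.7 CPM in shTTK, groups that overlapped (log2 fold change 0.10, 95% interval -0.12 to 0.33, edgeR adjusted p = 0.555). The SCC-15 change exceeded the CAL-27 change by 0.49 ± 0.15 (SE) (edgeR adjusted p = 0.00979). That difference was not called without both SCC-15 libraries numbered 1 (0.35, edgeR adjusted p = 0.123), without SCC-15 shControl library 1 (adjusted p = 0.0511) or without CAL-27 shControl library 1 (adjusted p = 0.0708).

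FST (chromosome 5, 53480409 to 53487134, plus strand) encodes follistatin, the secreted protein that binds activins. It was at 51.7, 48.7 and 49.5 CPM in CAL-27 shControl and at 49.6, 42.2 and 54.3 CPM in CAL-27 shTTK. The shTTK libraries spread on both sides of the controls, and the log2 fold change was -0.04 with a 95% interval of -0.18 to 0.11 (edgeR adjusted p = 0.767). In SCC-15 it had 2, 1 and 5 counts in shControl and 5, 5 and 3 in shTTK, a ratio of 1.61 with a 95% exact interval of 0.619 to 4.49. Per exon length, the ratio of INHBA to FST within CAL-27 libraries was 0.814, 1.10 and 0.802 in shControl and 0.716, 0.654 and 0.626 in shTTK. Transcripts of the activin A subunit were thus at a level like that of its antagonist, and the ratios of the shTTK libraries all lay below those of the controls.

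TGFBR1 (chromosome 9, 99104038 to 99154192, plus strand), the type I receptor kinase of TGF-beta, was the only member called in both lines, and it fell in both. It was at 36.2, 34.3 and 38.2 CPM in CAL-27 shControl and at 31.5, 32.1 and 30.1 CPM in CAL-27 shTTK, and in SCC-15 at 26.7, 26.9 and 25.6 CPM in shControl and 18.7, 20.3 and 21.9 CPM in shTTK. The groups did not overlap in either line. It fell by 0.21 ± 0.070 (SE) on the log2 scale in CAL-27 (edgeR adjusted p = 0.016) and by 0.38 ± 0.076 in SCC-15 (edgeR adjusted p = 4.93e-05). The CAL-27 call was lost without CAL-27 shControl library 3 (edgeR adjusted p = 0.0902), without shTTK library 1 (0.0599) or library 3 (0.124), and with no count filter (0.053). The changes in the 2 lines were not shown to differ (difference -0.17, 95% interval -0.37 to 0.04, edgeR adjusted p = 0.267).

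TGFBR2 (chromosome 3, 30606502 to 30694142, plus strand), the type II receptor that binds the ligand first, went the other way in SCC-15. There it was at 56.6, 56.6 and 57.5 CPM in shControl and at 72.4, 71.7 and 74.2 CPM in shTTK, with little spread in either group. It rose in SCC-15 by a log2 fold change of 0.35 ± 0.051 (SE) (edgeR adjusted p = 3.04e-08). In CAL-27 it was at 56.3, 58.0 and 55.4 CPM in shControl and at 57.4, 53.4 and 52.1 CPM in shTTK, and the groups overlapped (log2 fold change -0.06, 95% interval -0.17 to 0.04, edgeR adjusted p = 0.445). The change differed between the lines by 0.42 ± 0.073 (SE) (edgeR adjusted p = 4.9e-06). The ratio of TGFBR2 to TGFBR1 per exon length was 3.06 to 3.27 in the SCC-15 shControl libraries and 4.93 to 5.62 in the shTTK libraries, against 2.11 to 2.46 and 2.42 to 2.65 in CAL-27.

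SMAD3 (chromosome 15, 67063763 to 67195195, plus strand) encodes a receptor-activated SMAD that carries the signal to DNA. In SCC-15 it was at 102, 107 and 103 CPM in shControl and at 80.4, 80.5 and 82.5 CPM in shTTK, groups that did not overlap. It fell in SCC-15 by 0.36 ± 0.038 (SE) on the log2 scale (edgeR adjusted p = 2.96e-12). In CAL-27 it was at 327, 327 and 318 CPM in shControl and at 321, 333 and 321 CPM in shTTK, with a 95% interval of the log2 fold change from -0.06 to 0.07 (edgeR adjusted p = 0.945). The change differed between the lines by -0.36 ± 0.050 (SE) (edgeR adjusted p = 1.47e-08).

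SMAD7 (chromosome 18, 48919853 to 48952052, minus strand), the inhibitory SMAD, was at 33.9, 31.5 and 30.8 CPM in SCC-15 shControl and at 43.6, 39.6 and 39.9 CPM in SCC-15 shTTK. It rose in SCC-15, where every shTTK library exceeded every control, with an edgeR adjusted p of 0.000102 and a 95% interval of the log2 fold change from 0.20 to 0.50. In CAL-27 it was at 5.15, 6.03 and 6.32 CPM in shControl and at 7.39, 5.86 and 7.69 CPM in shTTK. These groups overlapped through shTTK library 2 (log2 fold change 0.26 ± 0.13, edgeR adjusted p = 0.126), and without that library the gene was called higher (adjusted p = 0.0394). The changes in the 2 lines were not shown to differ (difference 0.10, 95% interval -0.20 to 0.39, edgeR adjusted p = 0.707). The ratio of SMAD7 to SMAD3 per exon length was 0.534 to 0.601 in SCC-15 shControl and 0.876 to 0.981 in SCC-15 shTTK, and 0.0285 to 0.0434 over all CAL-27 libraries.

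**Figure D2:**
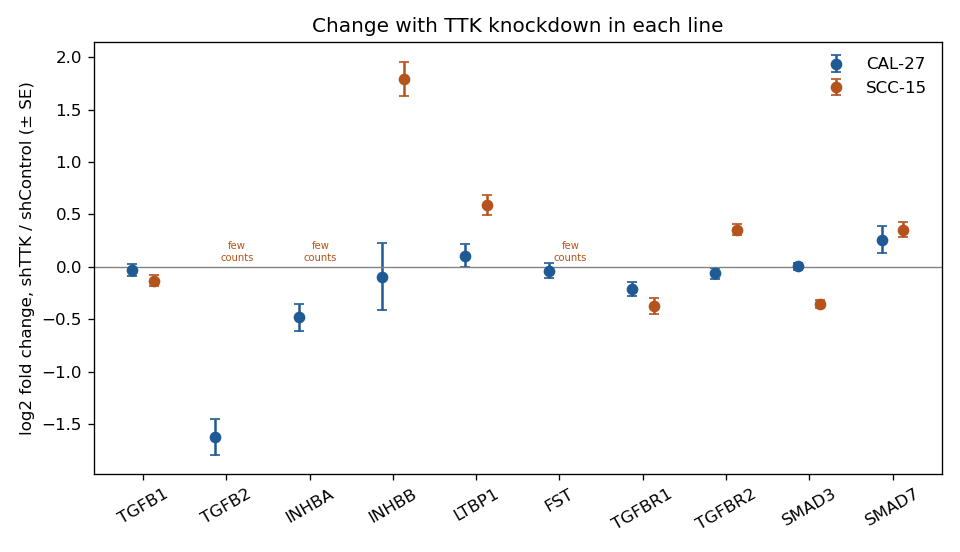
Log2 fold change of shTTK against shControl (vertical axis, points with SE bars) for the 10 genes in CAL-27 (blue) and SCC-15 (orange). Values of TGFB2, INHBA and FST in SCC-15 rest on few counts and are not drawn. The farthest points from 0 are TGFB2 in CAL-27 (-1.62) and INHBB in SCC-15 (1.79), the values used in the choice of genes. The SE bars of these 2 points are a description and no test.

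Leaving out TGFB2 in CAL-27 and INHBB in SCC-15, 9 members remained for each line. In CAL-27, 0 members were called higher and 2 lower (INHBA and TGFBR1), beside 27.3% of all genes tested called in either direction (11.6% higher and 15.7% lower). At an unadjusted p under 0.05, 1 were higher and 2 lower, and DESeq2 called 0 higher and 2 lower. The lower count was 0 with no count filter and 1 with CAL-27 fitted alone. In SCC-15, 3 members were called higher (LTBP1, TGFBR2 and SMAD7) and 2 lower (TGFBR1 and SMAD3), beside 27.7% of all genes (13.4% higher and 14.3% lower). The libraries of shTTK and shControl did not overlap for 2 of the 9 in CAL-27, beside 38.4% of all genes, and for 5 of the 9 in SCC-15, beside 38.9%. The median log2 fold change of the 9 was -0.04 in CAL-27, beside -0.01 over all genes. In SCC-15, INHBA, FST and TGFB2 have too few counts for a fold change, and the median of the other 6 was 0.11, beside 0.00 over all genes. With those 3 it was 0.35, and the choice to leave them out was made after seeing the data. Of the 8 members tested for a difference between lines, 2 had a higher and 1 a lower change in SCC-15 than in CAL-27, beside 25.4% of all genes (13.3% higher and 12.1% lower). INHBA, FST and TGFB2 passed the filter on low counts only through CAL-27.

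**Figure D3:**
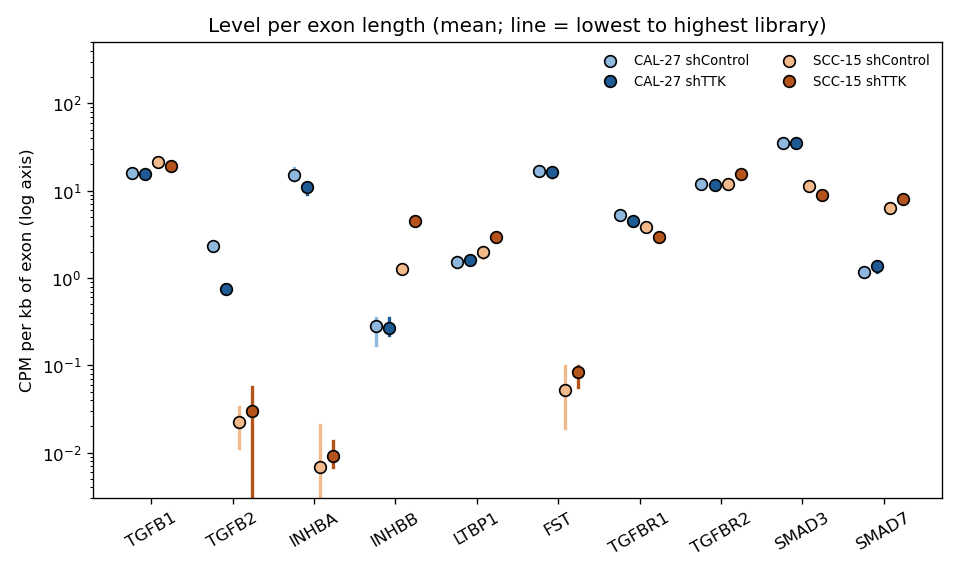
Level of the 10 genes in CPM per kb of exon (vertical log axis) in the 4 groups, with the mean as a point and the range of 3 libraries as a line, cut at the lower edge where a library had 0 counts. SMAD3 leads in CAL-27 (35.6 in shControl) and TGFB1 in SCC-15 (21.2 in shControl).

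In the shControl libraries the lines differed in the levels of several ligand and SMAD genes. Per exon length (CPM per kb), SMAD3 led in CAL-27 shControl with 35.6, followed by FST with 16.8, TGFB1 with 15.9, INHBA with 15.2 and TGFBR2 with 12. The libraries of INHBA, at 13.4 to 18 CPM per kb, overlapped those of both FST (16.4 to 17.4) and TGFB1 (15.6 to 16.1), so the order of these 3 genes is not settled around INHBA. TGFBR1 (5.30), TGFB2 (2.34), LTBP1 (1.52), SMAD7 (1.16) and INHBB (0.286) followed without overlap. In SCC-15 shControl the order was TGFB1 (21.2), TGFBR2 (12.1), SMAD3 (11.4), SMAD7 (6.37), TGFBR1 (3.86), LTBP1 (1.97) and INHBB (1.29), again without overlap, and FST, TGFB2 and INHBA lay at or under 0.0522 and overlapped one another. In SCC-15 shTTK, INHBB (4.46) stood above TGFBR1 (2.97) and LTBP1 (2.97), which overlapped, and in CAL-27 shTTK, TGFB2 (0.759) stood below LTBP1 (1.63) and SMAD7 (1.39).

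Between the control libraries of the lines, 3 of 8 members were called higher and 4 lower in SCC-15, beside 76% of all genes (37.8% higher and 38.2% lower). The libraries of the lines did not overlap for 6 of the 8, beside 77.3% of all genes. INHBA and FST among them had to differ, since they passed the filter only through CAL-27. INHBA had 6575 counts over the CAL-27 shControl libraries and 3 over the SCC-15 shControl libraries, a ratio of 2200 with a 95% exact interval of 751 to 10700 for counting error only. FST had 2591 and 8 counts (ratio 325, interval 164 to 753). TGFB2, which also passed the filter only through CAL-27 and whose values took part in the choice, had 625 and 6, a ratio of 104 as a description. Among these libraries, transcripts of the activin A subunit and of its antagonist were thus counted almost wholly in CAL-27.

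SMAD3 was lower in SCC-15 by 1.64 ± 0.035 (SE) on the log2 scale, as a difference of -1.64 (edgeR adjusted p = 3.71e-54), and SMAD7 higher by 2.46 ± 0.099 (edgeR adjusted p = 3.72e-36). TGFB1 was higher in SCC-15 by 0.42 ± 0.055 (edgeR adjusted p = 2.59e-10), and TGFBR1 differed by -0.45 ± 0.071 (edgeR adjusted p = 3.38e-08). LTBP1 was called higher by 0.38 ± 0.11 (edgeR adjusted p = 0.00136), although its libraries overlapped. TGFBR2 stood at the same level within a narrow interval (log2 difference 0.01, 95% interval -0.10 to 0.11, edgeR adjusted p = 0.9). For INHBB, whose values took part in the choice, the difference was 2.17 as a description.

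The rest of the pathway was read from a list of 51 other genes of ligands, receptors, latency and activation, antagonists, SMADs and regulators, of which 41 were tested. In CAL-27, 6 were called higher, 12 lower and 23 were not called, and in SCC-15, 13 were called higher, 5 lower and 23 were not called. The called share was 43.9% in each line, beside 27.3% of all genes in CAL-27 and 27.7% in SCC-15. The list was chosen with earlier results of these data known, so this share is a description only. The median log2 fold change of the list was -0.08 in CAL-27 and 0.07 in SCC-15. Called in both lines were 10 genes, 55.6% of the calls in each line, and 6 of the 10 changed in opposite directions (FURIN, ITGB8, LTBP3, NEDD4L, SKIL and STRAP). Over all genes 1981 were called in both lines, 42.9% of the CAL-27 and 42.2% of the SCC-15 calls, 1166 in the same and 815 in opposite directions.

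**Figure D4:**
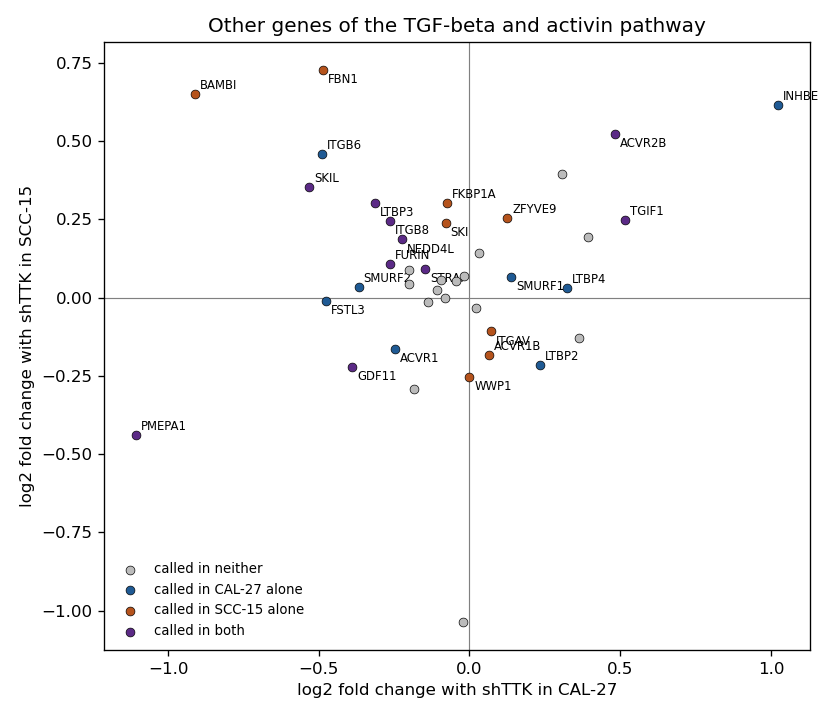
Log2 fold change with shTTK in CAL-27 (horizontal axis) and SCC-15 (vertical axis) for the 41 tested genes of the pathway list, coloured by the line in which each was called at an adjusted p under 0.05. SKIL and LTBP3 lie in the quadrant of a fall in CAL-27 and a rise in SCC-15, and PMEPA1 fell in both lines.

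Among the ligands of that list, GDF11, a relative of myostatin, fell in both lines, from 18.8 ± 1.24 to 14.3 ± 1.15 CPM in CAL-27 (log2 fold change -0.39, edgeR adjusted p = 0.000175) and from 46.7 ± 1.03 to 40.1 ± 1.43 CPM in SCC-15 (-0.22, edgeR adjusted p = 0.00585; SD, n = 3). The SCC-15 call was lost without both libraries numbered 1 (adjusted p = 0.0765). INHBE, the inhibin beta E subunit, rose in CAL-27 from 0.713 to 1.46 CPM (log2 fold change 1.02, edgeR adjusted p = 0.0173), a call lost without CAL-27 shControl library 2 (0.0707) or 3 (0.0636) or shTTK library 2 (0.0811). Among the receptors, ACVR2B, a type II activin receptor, rose in both lines, by 0.48 in CAL-27 (edgeR adjusted p = 0.01) and 0.52 in SCC-15 (0.000678). ACVR1, a type I receptor, fell by 0.25 in CAL-27 (edgeR adjusted p = 0.0354), and this call was lost in 9 of 20 alternatives, with an adjusted p of up to 0.207. These were DESeq2, no count filter, and the fits without CAL-27 shControl library 3, shTTK library 2 or 3, or without SCC-15 shControl library 2 or 3 or shTTK library 1 or 2. ACVR1B, the type I receptor of activin, fell by 0.18 in SCC-15 (edgeR adjusted p = 0.0194), with an adjusted p of 0.175 without both SCC-15 libraries numbered 1, 0.122 without shControl library 1, 0.0506 without shTTK library 1, 0.0679 without shTTK library 3 and 0.0623 with no count filter.

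The latency and activation genes called in both lines, LTBP3, ITGB8 and FURIN, each changed in opposite directions. LTBP3, a partner of latent TGF-beta, fell in CAL-27 from 79.8 ± 4.16 to 64.2 ± 2.27 CPM and rose in SCC-15 from 104 ± 4.40 to 129 ± 7.32 CPM (SD, n = 3; difference between lines 0.62 ± 0.065, edgeR adjusted p = 1.71e-12). LTBP4 rose in CAL-27 by 0.32 (edgeR adjusted p = 5.99e-08) and was at 82.4 and 84.2 CPM in the SCC-15 groups. ITGB6, the beta subunit of an integrin that releases TGF-beta, fell in CAL-27 from 57.3 to 40.8 CPM (log2 fold change -0.49, edgeR adjusted p = 2.07e-08) and was under 1 CPM in SCC-15. ITGB8, of another such integrin, and FURIN, the protease that cleaves the propeptide, both fell in CAL-27 by 0.26 and rose in SCC-15, by 0.25 (with overlapping libraries) and 0.11. The SCC-15 call of ITGB8 was lost without shControl library 3 (adjusted p = 0.183) or shTTK library 2 (0.0572), and that of FURIN without both libraries numbered 1 (0.304), without shControl library 1 (0.145) or shTTK library 1 (0.088). FBN1, a microfibril protein to which latent complexes bind, rose in SCC-15 from 5.23 to 8.67 CPM (log2 fold change 0.73, edgeR adjusted p = 0.000321).

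Among the regulators, PMEPA1, a target that restrains the pathway, fell in both lines, from 41.4 ± 5.50 to 19.3 ± 0.144 CPM in CAL-27 (log2 fold change -1.10 ± 0.080, edgeR adjusted p = 9.53e-20) and from 20.4 ± 1.20 to 15.1 ± 1.04 CPM in SCC-15 (-0.44 ± 0.090, edgeR adjusted p = 5.78e-05; SD, n = 3). TGIF1, a transcriptional corepressor of SMADs, rose in both lines, by 0.52 in CAL-27 and 0.25 in SCC-15 (edgeR adjusted p = 5.06e-16 and 6.19e-05). SKIL, another corepressor, fell in CAL-27 from 28.2 to 19.6 CPM and rose in SCC-15 from 44.4 to 56.7 CPM. SKI rose in SCC-15 by 0.24 (edgeR adjusted p = 4.67e-06), and FKBP1A, a receptor-binding immunophilin whose counts may share reads with related copies, by 0.30 (edgeR adjusted p = 1.83e-11).

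FSTL3, which binds activins like follistatin, had a level opposite to that of FST between the lines. It was at 7.45 ± 0.404 CPM in CAL-27 shControl and 127 ± 9.01 CPM in SCC-15 shControl (SD, n = 3; log2 difference 4.09, edgeR adjusted p = 9.43e-61). It fell in CAL-27 shTTK to 5.36 CPM (log2 fold change -0.48, edgeR adjusted p = 0.00121), a call lost without shTTK library 1 (0.0537). BAMBI, a receptor decoy, rose in SCC-15 from 5.28 to 8.30 CPM (log2 fold change 0.65, edgeR adjusted p = 0.0103), and this call was lost without SCC-15 shControl library 3 (0.0714) or shTTK library 2 (0.118). The partner SMADs, named after their values were seen, were not called with knockdown in either line. SMAD4 was at 9.97 and 9.35 CPM in CAL-27 shControl and shTTK and at 35.2 and 36.6 CPM in the SCC-15 groups, and SMAD2 was between 36.6 and 40.1 CPM in all 4 groups. Between the control lines, SMAD4 was called higher in SCC-15 (log2 difference 1.82), beside 76% of all genes called. SMAD2 was not called there (-0.13), though 3 of 19 alternatives called it lower.

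Genes known to be induced by TGF-beta in epithelial or mesenchymal cells were read from a list of 35, of which 32 were tested. In CAL-27, 8 were called higher, 10 lower and 14 were not called, a called share of 56.2% beside 27.3% of all genes (11.6% higher and 15.7% lower). In SCC-15, 16 were called higher, 3 lower and 13 were not called, a share of 59.4% beside 27.7% of all genes (13.4% higher and 14.3% lower). The list was chosen with earlier results of these data known, so both shares are a description only. The median log2 fold change was 0.03 in CAL-27 and 0.20 in SCC-15. Called in both lines were 13, which is 72.2% of the CAL-27 and 68.4% of the SCC-15 calls (42.9% and 42.2% over all genes). Of the 13, 7 changed in the same direction and 6 in opposite directions, beside 1166 and 815 over all genes. COL1A1 also belongs to the fibroblast markers, and VIM had at most 1 count in each CAL-27 shTTK library. Between the control lines, 11 of the 32 were called higher and 20 lower in SCC-15, beside 37.8% and 38.2% of all genes. VIM was at 0.378 CPM in CAL-27 shControl and 162 CPM in SCC-15 shControl.

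**Figure D5:**
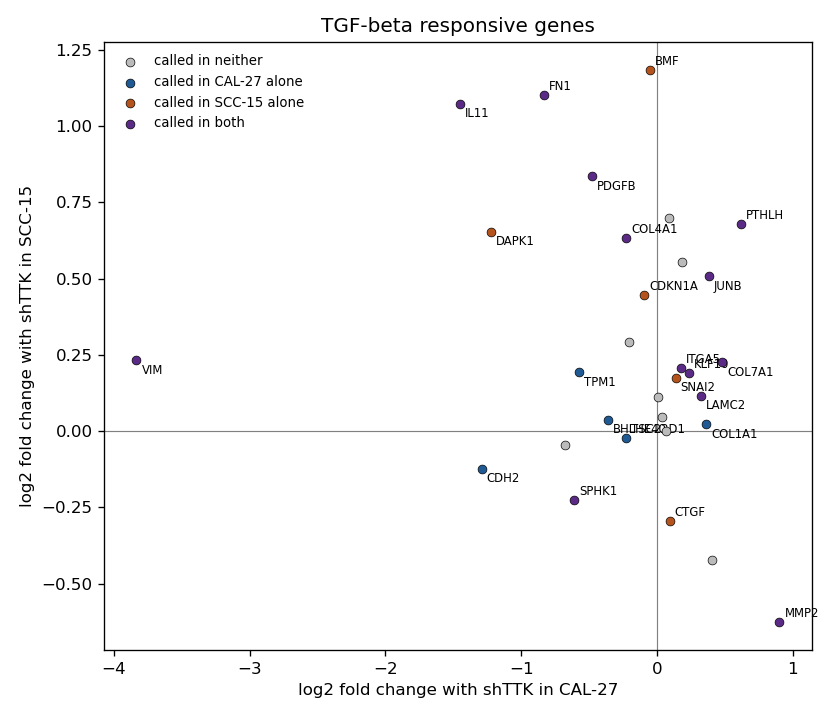
Log2 fold change with shTTK in CAL-27 (horizontal axis) and SCC-15 (vertical axis) for 31 of the 32 tested genes of the TGF-beta responsive list, coloured by the line in which each was called at an adjusted p under 0.05. FN1, IL11 and PDGFB lie at the upper left, lower in CAL-27 and higher in SCC-15, and MMP2 lies at the lower right. VIM at the far left rests on few CAL-27 counts.

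FN1, which encodes fibronectin, fell in CAL-27 from 263 ± 5.16 to 148 ± 9.63 CPM and rose in SCC-15 from 51.9 ± 1.87 to 111 ± 6.92 CPM (SD, n = 3), so that the groups of each line did not overlap (difference between lines 1.93 ± 0.061, edgeR adjusted p = 1.13e-37). IL11, a cytokine induced by TGF-beta, fell in CAL-27 from 3.67 to 1.33 CPM and rose in SCC-15 from 2.50 to 5.27 CPM. PDGFB, a platelet-derived growth factor chain, fell from 47.7 to 34.2 CPM in CAL-27 and rose from 3.08 to 5.49 CPM in SCC-15. MMP2, a gelatinase, was the reverse, with 1.14 and 2.16 CPM in CAL-27 and 15.0 and 9.74 CPM in SCC-15. CDH2, which encodes N-cadherin, fell in CAL-27 from 35.1 to 14.4 CPM (log2 fold change -1.29 ± 0.097, edgeR adjusted p = 1.4e-18), and was at 5.96 and 5.47 CPM in SCC-15.

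PTHLH, COL7A1 and JUNB rose in both lines. PTHLH, the parathyroid hormone-like hormone, rose by a log2 fold change of 0.62 in CAL-27 and 0.68 in SCC-15 (edgeR adjusted p = 5.33e-05 and 0.000118). COL7A1, the anchoring fibril collagen, rose from 159 to 222 CPM in CAL-27 and from 584 to 683 CPM in SCC-15. JUNB, an AP-1 factor, rose by 0.38 and 0.51. In CAL-27, COL1A1 rose by 0.36 and TPM1, a tropomyosin, fell by 0.57. SPHK1, a sphingosine kinase, fell by 0.61 in CAL-27 and by 0.23 in SCC-15 (edgeR adjusted p = 0.0234), where its libraries overlapped and the call was lost by DESeq2 (adjusted p = 0.0667) and without shControl library 2 (0.17) or 3 (0.123) or shTTK library 2 (0.0973) or 3 (0.112). BMF, a pro-apoptotic BCL2 relative, rose in SCC-15 from 3.02 to 6.87 CPM (log2 fold change 1.18 ± 0.15, edgeR adjusted p = 5.17e-10). CTGF, also named CCN2, fell in SCC-15 by 0.30 (edgeR adjusted p = 4.19e-06) and was at 666 and 711 CPM in CAL-27 (edgeR adjusted p = 0.0604, called higher in 8 of 20 alternatives).

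TGFBI, which encodes a matrix protein induced by TGF-beta, was named after its values were seen. It was at 407 and 427 CPM in CAL-27 (edgeR adjusted p = 0.0891, called higher in 8 of 20 alternatives) and at 999 and 998 CPM in SCC-15.

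The neighbouring BMP branch was read from 18 genes, 16 of them tested. In CAL-27, 3 were called higher and 3 lower, 37.5% of the list beside 27.3% of all genes. In SCC-15, 2 were called higher and 2 lower, 25% of the list and near the 27.7% of all genes. This list too was chosen with earlier results of these data known. BMP2, a BMP ligand, rose in both lines, from 20.2 to 25.9 CPM in CAL-27 (log2 fold change 0.36, edgeR adjusted p = 0.000575) and from 8.59 to 14.1 CPM in SCC-15 (0.72, edgeR adjusted p = 2.52e-08). BMP7 rose in CAL-27 from 0.485 to 1.91 CPM, few counts in each library (edgeR adjusted p = 9.67e-05). ID1, a BMP target, rose in CAL-27 from 124 to 180 CPM (log2 fold change 0.53, edgeR adjusted p = 0.0012). ID3, another, fell in CAL-27 by 0.14 (edgeR adjusted p = 0.0195) and rose in SCC-15 by 0.24 (edgeR adjusted p = 2.71e-07). The CAL-27 call of ID3 was lost in 8 of 20 alternatives, with an adjusted p of up to 0.237: no count filter, CAL-27 fitted alone, and without CAL-27 shControl library 2, shTTK library 1 or 3, or SCC-15 shControl library 2 or 3 or shTTK library 2. SMAD1, a BMP-activated SMAD, fell in SCC-15 by 0.42 (edgeR adjusted p = 0.00306), with 0.054 without both libraries numbered 1. Of the 16, 2 had a higher and 2 a lower change in SCC-15 than in CAL-27, a share of 25% near the 25.4% of all genes, and most alternatives moved these numbers.

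Over the 12 libraries, the 3 genes of 11503 compared whose log2 CPM followed TGFB2 most closely were TMEM8A, GULP1 and MVD, each with a Pearson r of 0.991. The libraries fall into 2 lines, which sets much of such an r. Within the 6 CAL-27 libraries r was 0.948, 0.986 and 0.968, which rests on the fall of TGFB2 that the choice of genes used. Within the 6 SCC-15 libraries, where TGFB2 has few counts, r was 0.725, 0.677 and 0.843. GULP1, an engulfment adaptor, was at 48.9 and 27.1 CPM in CAL-27 shControl and shTTK and at 3.19 and 3.52 CPM in SCC-15. For INHBB the closest were NDUFB10 (r = 0.995), CDC37 (0.991) and S100A6 (0.99), all higher in SCC-15 shTTK than in SCC-15 shControl, at 117 and 101, 393 and 319, and 746 and 582 CPM. Their r within the 6 SCC-15 libraries was 0.979, 0.99 and 0.994, which rests on the rise of INHBB that the choice of genes used, and within the 6 CAL-27 libraries 0.944, 0.703 and 0.608.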

How the data were processed

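Gene expression was measured by strand-specific poly(A) RNA sequencing in 12 libraries. The authors deposited raw counts per gene symbol, and per the submitters' processing notes used Trim Galore 0.6.6, STAR 2.7.7a, featureCounts 2.0.1 and the build hg38. The annotation release, strand setting and handling of multimapped reads were not given in the sources used here. The table had 0 columns of values that match no sample.

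Groups were taken from the labels. From the deposited counts, edgeR 4.0.16 (R 4.3.3, limma 3.58.1) kept 16946 genes by filterByExpr, scaled them by TMM and fitted 4 group means to all 12 libraries by robust quasi-likelihood, with 8 residual degrees of freedom and a median of 64.9 prior ones. The contrasts were shTTK against shControl in each line, the difference of these changes, and SCC-15 against CAL-27 controls. P-values are two-sided and adjusted by Benjamini-Hochberg over all genes of a contrast, and a gene was called at an adjusted p under 0.05. The SE is the log2 fold change over the root of F. Totals of 16176655 to 18484112 counts set the precision, and counting intervals cover counting error only.

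The members and gene lists were chosen with earlier results of these data known. Named were the members, TTK, up to 3 called genes per role group and line from the pathway list and from the BMP list by adjusted p, and per line and direction the 4 largest changes of the responsive list at 5 CPM or more. The 3 genes most alike TGFB2 and INHBB by Pearson r were also named. Others are said to be chosen after their values were seen. The values of 1 gene of the responsive list are not reported here, though its list counts hold it. Exon lengths and coordinates come from GENCODE 29 (58708 of the 58735 lines find their symbol), and promoters from RefSeq (GRCh38.p14), where each of the 10 members had an entry. Alternatives were RLE factors, DESeq2 1.42.0, limma-voom, other count filters, each line alone, a replicate block, and leaving out libraries.

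On simulated counts of 16566 genes, 68.4% of log2 changes of 0.5 were recovered in CAL-27 and 62% in SCC-15, and 50.5% for the difference between lines. Of the calls made on them, 7.23%, 1.37% and 4.08% were false, the first above the nominal share. The simulation gave every gene the same spread and changed few genes, in CAL-27 98 by 0.5 and 99 by 1. The measured libraries had unequal spread and many more calls, so these shares may not carry over to them.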

Additional observations from a re-analysis of the deposited data

Results flagged for a closer look

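Listed here are 12 genes whose change with knockdown differed between SCC-15 and CAL-27 by a test of the difference itself (edgeR quasi-likelihood, Benjamini-Hochberg over all genes). They are not all that differed: this test called 18 of 41 pathway genes and 17 of 32 responsive genes, beside 25.4% of all genes. Both lists were chosen with earlier results of these data known. The values are log2 differences, positive where the change was higher in SCC-15. Among the members these were LTBP1 (0.49, adjusted p = 0.00979), TGFBR2 (0.42, adjusted p = 4.9e-06) and SMAD3 (-0.36, adjusted p = 1.47e-08). Of the other genes named by the rule, those called in opposite directions in the 2 lines are given. That choice made a difference likely in advance, so these p-values add little. Named genes that differed without opposite calls, such as CDH2 (1.17) and BMF (1.23), are left out. In the latency group they were LTBP3 (0.62, adjusted p = 1.71e-12), ITGB8 (0.51, adjusted p = 4.75e-05) and FURIN (0.37, adjusted p = 3.37e-08). The corepressor SKIL had 0.88 (adjusted p = 6.33e-12) and the BMP target ID3 had 0.38 (adjusted p = 5.72e-07). Of the responsive genes, IL11 had 2.53 (adjusted p = 8.29e-10), FN1 1.93 (adjusted p = 1.13e-37), PDGFB 1.31 (adjusted p = 2.69e-10) and MMP2 -1.53 (adjusted p = 8.28e-06). TTK itself fell further in SCC-15 than in CAL-27, by a difference of -0.67 (adjusted p = 2.37e-08), and its part in these differences was not tested.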

How the results depend on the processing

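The counts of calls below are small, so 1 gene can move them. In CAL-27, the 2 members called lower became 0 with no count filter, 1 with CAL-27 fitted alone, 1 with the replicate block and 1 without both SCC-15 libraries numbered 1. Leaving out 1 library at a time gave 0 to 2 members lower and 0 to 1 higher, 3 to 7 pathway genes higher and 0 to 3 BMP genes lower. The 3 BMP genes lower became 1 with DESeq2 and 1 with no count filter. In SCC-15, the 5 pathway genes lower became 3 with no count filter and 3 without both libraries numbered 1, and 3 to 6 when 1 library was left out. The 2 BMP genes lower in SCC-15 became 1 without both libraries numbered 1 and 1 to 2 with 1 library left out. For the difference between lines, the 2 members with a higher change became 1 without both SCC-15 libraries numbered 1 and 1 to 2 with 1 library left out. The 2 BMP genes with a higher change became 1 with no count filter, 1 without both libraries numbered 1 and 1 to 4 with 1 library left out. The 2 with a lower change became 1 with DESeq2, 1 with limma-voom, 1 with no count filter, 0 with the replicate block, 1 without both libraries numbered 1, and 0 to 2 with 1 library left out.

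No called value changed sign in any alternative. Of 3895 log2 changes of named genes under the alternatives, 69 changed sign, each called in neither fit, the largest at 0.38 on the log2 scale (TGFB2 in SCC-15). TGFB2 between the control lines moved from -6.62 to -7.00 without SCC-15 shControl library 2. Same-numbered libraries did not deviate together (correlations of -0.02 to 0.034). With 3 libraries a group, this shows no pairing by number and cannot exclude one.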
